A study of Mus musculus with 4 samples.

Results

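The genes described here are 8 of the 32285 genes in the tables: Csf1r and Csf1, the 3 chains of the GM-CSF receptor family Csf2ra, Csf2rb and Csf2rb2, the G-CSF receptor Csf3r, and the IL-7 receptor chains Il7r and Il2rg. They were chosen by symbol, as growth and survival receptors of myeloid cells with the ligand Csf1, and the choice was made with earlier results of these data known. Single-cell RNA sequencing was performed on cells sorted from the brain for CD45 and CD11b, and 1 library was made per mouse. The groups were 2 PRMT1FL mice, which the sample labels call wild type and which carry floxed alleles of the arginine methyltransferase Prmt1, and 2 PRMT1Cx3cr1-KO mice, in which these alleles are deleted by a tamoxifen-inducible Cre (CreERT) driven by Cx3cr1. Cx3cr1 is active in microglia and in other myeloid cells. All 4 mice received 0.2% cuprizone (CPZ), a copper chelator that strips myelin, for 5 wk. The labels give an age of 5 to 6 wk for the diet, whereas the methods of the study give that age for the tamoxifen injections.

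CSF1R is the receptor tyrosine kinase on which microglia depend for survival, and it is bound by CSF1 and IL-34. The GM-CSF receptor joins the ligand-binding alpha chain Csf2ra to the beta chain Csf2rb, which also serves the receptors of IL-3 and IL-5. Mice have in addition Csf2rb2, a beta chain particular to IL-3. Csf3r binds G-CSF and is the receptor typical of neutrophils. Il7r pairs with the common gamma chain Il2rg to bind IL-7, or with Crlf2 to bind TSLP, and is best known from lymphocytes.

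The sequence upstream of the start is shown for Csf1 and Csf2ra, the members that were higher in PRMT1Cx3cr1-KO mice in 1 microglial state (D/E-like cells, described further on). Both are from RefSeq on GRCm38.p6, read 5′ to 3′ on the minus strand, with motif matches in capitals.
Csf1, chr3:107760481-107760719: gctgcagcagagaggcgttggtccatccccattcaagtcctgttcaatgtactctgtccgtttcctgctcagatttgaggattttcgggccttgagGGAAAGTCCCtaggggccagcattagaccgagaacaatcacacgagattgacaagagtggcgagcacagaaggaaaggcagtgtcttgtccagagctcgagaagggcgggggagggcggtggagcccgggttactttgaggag
Csf2ra, chr19:61228430-61228668: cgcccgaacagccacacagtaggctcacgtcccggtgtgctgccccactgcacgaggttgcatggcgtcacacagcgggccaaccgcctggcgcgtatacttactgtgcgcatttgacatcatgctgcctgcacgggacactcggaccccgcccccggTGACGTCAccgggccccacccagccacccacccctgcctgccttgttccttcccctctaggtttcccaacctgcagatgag
Motifs searched on both strands were the kappaB site, the cyclic AMP response element TGACGTCA, the AP-1 letters TGANTCA and the PU.1 core GAGGAA. The Csf1 window held 1 kappaB match, a pattern present in 0.353% of 32851 upstream windows of the same length, and the Csf2ra window held 1 TGACGTCA match, present in 1.42%. Neither window held the AP-1 letters (6.57% of windows) or the PU.1 core (22.1%). These are matches of letters, and no binding was measured here. The study lists Csf1 among genes with a reduced peak of an activating histone mark at the promoter in PRMT1Cx3cr1-KO microglia. For its IFN- and MHCII-associated genes it reports lower mRNA by bulk RNA sequencing, which does not resolve the states described here.

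In mm10 coordinates of GENCODE, Csf1r lies on chromosome 18 (61100598 to 61132149, ENSMUSG00000024621), Csf1 on chromosome 3 (107741048 to 107760469, ENSMUSG00000014599) and Csf2ra near the end of chromosome 19 (61223957 to 61228429, ENSMUSG00000059326). Csf2rb (78325752 to 78353847, ENSMUSG00000071713) and Csf2rb2 (78282507 to 78305721, ENSMUSG00000071714) are neighbours on chromosome 15, which also carries Il7r (9505788 to 9530176, ENSMUSG00000003882). Csf3r is on chromosome 4 (126024550 to 126044440, ENSMUSG00000028859) and Il2rg on chromosome X (101264378 to 101268255, ENSMUSG00000031304).

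The 4 libraries held 76943248 to 99559644 unique molecular identifiers (UMIs, each counting 1 captured RNA molecule once), and 8170 to 11427 cells per mouse passed the filters. Library pairs shared 31 to 46 cell barcodes. Of 16 clusters 8 were microglial, with 7775 to 10953 cells per mouse and a median of 6245 to 7113 UMIs per cell, and 7 of these 8 had enough cells in every mouse for a test. In microglia Prmt1 itself was at 91.1 and 83.9 CPM (the gene's UMIs relative to the sum over all genes, on 1 scale for every mouse) in PRMT1FL mice and at 70.2 and 70.7 CPM in PRMT1Cx3cr1-KO mice (log2 fold change -0.39, SE 0.07, adjusted p = 0.0774 from edgeR), and UMIs do not separate intact from recombined transcripts. Cx3cr1, whose promoter drives the Cre, was at 1444 and 1542 CPM against 847 and 834 CPM. Microglial markers were high in all 4 mice, at 9481 to 10743 CPM for the summed list of 7 genes. The 7 border macrophage markers summed to 33.3 and 33.5 CPM in the microglia of PRMT1FL mice and to 60.6 and 158 CPM in those of PRMT1Cx3cr1-KO mice, and their part in the values below was not tested.

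Over all microglia, Il7r was the only 1 of the 8 members that passed the test between genotypes, and it rose. Its level was 5.11 and 6.02 CPM in PRMT1FL mice and 10.1 and 11.2 CPM in PRMT1Cx3cr1-KO mice, from 450, 439, 825 and 1047 UMIs. Both PRMT1Cx3cr1-KO mice were above both PRMT1FL mice. The log2 fold change was 0.87 (SE 0.11, adjusted p = 0.0412 from edgeR, by its quasi-likelihood test adjusted over 13874 genes). In this comparison 0.461% of all genes tested were called, 48 higher and 16 lower. Il7r was called by edgeR without either PRMT1Cx3cr1-KO mouse but not without PRMT1FL mouse 1 or 2. A fit without 1 mouse leaves 1 mouse in a genotype, so its p-value rests on the spread of the other genotype alone. Calls gained or lost in such fits, here and below, do not measure the spread between mice of both genotypes. With the microglial state as a term, the Il7r difference was 0.42 (adjusted p = 0.0399 from limma's voom). That fit takes several sums per mouse, so its p-value does not measure the spread between mice alone. The state richest in Il7r (D/E-like cells, described further on) made up a larger share of the microglia of PRMT1Cx3cr1-KO mice. The part of this share in the Il7r difference was not tested.

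For Csf1r and its ligand Csf1, as for Csf2ra and Il2rg below, each PRMT1Cx3cr1-KO mouse lay below each PRMT1FL mouse, but none of these genes passed the test. The share of all genes with such an order of the mice is not given here. The order alone is therefore not read as a difference, and for Csf2ra it rests on nearly equal levels. Csf1r, with the most UMIs of the 8 (110176 to 138578 per mouse), was at 1573 and 1511 CPM in PRMT1FL mice and at 1376 and 1283 CPM in PRMT1Cx3cr1-KO mice. The log2 fold change was -0.29 (SE 0.09, adjusted p = 0.159 from edgeR). It was -0.36 without PRMT1Cx3cr1-KO mouse 1 and -0.29 with the state as a term (adjusted p = 6.82e-06 from limma's voom). DESeq2 and edgeR with no filter on low counts also called Csf1r (adjusted p = 0.0351 and 0.0382). Csf1 was at 328 and 318 CPM against 284 and 195 CPM, a log2 fold change of -0.50 (SE 0.18, adjusted p = 0.211 from edgeR). PRMT1Cx3cr1-KO mouse 2 was the lower of its pair. The Csf1 value from edgeR was -0.23 without that mouse and -0.82 without PRMT1Cx3cr1-KO mouse 1.

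The GM-CSF receptor chains did not pass the test over all microglia. Csf2ra was at 232 and 231 CPM in PRMT1FL mice and at 229 and 226 CPM in PRMT1Cx3cr1-KO mice (log2 fold change -0.09, SE 0.06, adjusted p = 0.455 from edgeR). Csf2rb ranged from 61.8 to 76.6 CPM and Csf2rb2 from 14.4 to 19.5 CPM, and for both the genotypes overlapped. Both turned on a single mouse in edgeR. Leaving out PRMT1Cx3cr1-KO mouse 1 gave -0.27 for Csf2rb, and leaving out its group mate gave 0.33 for Csf2rb2. Csf3r ranged from 119 to 139 CPM (log2 fold change -0.17, SE 0.09, adjusted p = 0.328 from edgeR). Il2rg was at 24.1 CPM in both PRMT1FL mice and at 23.7 and 18.1 CPM in PRMT1Cx3cr1-KO mice (-0.28, SE 0.14, adjusted p = 0.335 from edgeR). The median log2 fold change of the 8 members was -0.13, beside 0.00 for all genes tested.

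**Figure D1:**
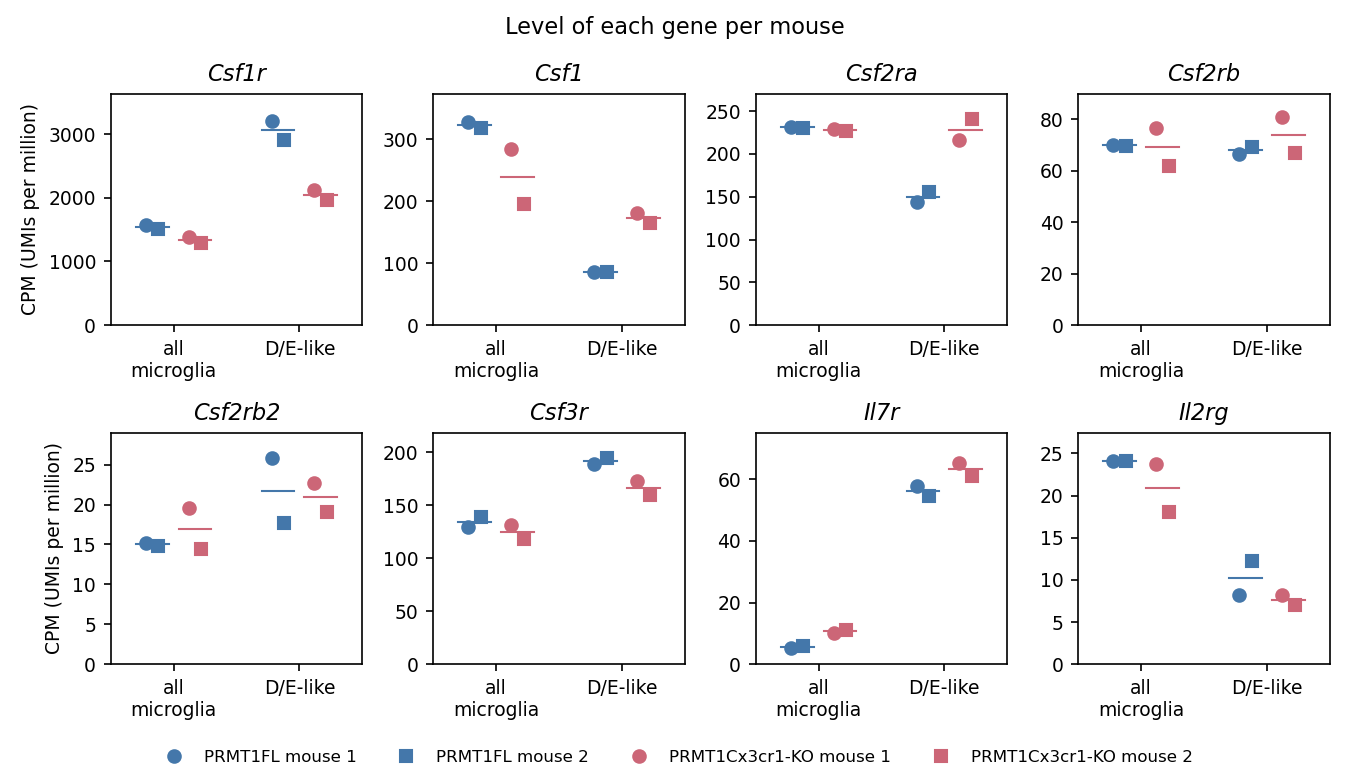
Level of each of the 8 genes in CPM (linear axis from 0), in all microglia and in D/E-like microglia. Each point is 1 mouse (circles mouse 1, squares mouse 2; blue PRMT1FL, red PRMT1Cx3cr1-KO) and the bar is the mean of 2 mice. Csf1 was called higher in PRMT1Cx3cr1-KO mice in D/E-like cells. Over all microglia its points lie lower in these mice, but the difference did not pass the test.

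The levels of the members were next described by microglial state. The states came from a clustering that left out the 8 genes, their pathway list and 1007 genes that differed between genotypes by over 2-fold without overlap of the mice. They were D/E-like cells (named from markers of the study's D and E clusters, such as Tmem119 and P2ry12), 2 proliferating A1-like states led by Mki67 and by Ube2c, an interferon-like state, and 3 states called by their leading genes: Itgax, Il12b-Ptgs2 and haemoglobin. State levels are given as means over 4 mice with the range, without a test, since the same cells defined the states. The 10 dissociation genes summed to 11972 to 17984 CPM in D/E-like, 9652.5 to 10593.5 in Il12b-Ptgs2 and 3803 to 5378 in Itgax cells. In haemoglobin cells they summed to 399 to 459 CPM, in A1-like Ube2c cells to 287 to 403. Marked doublets made up 15.8% of Il12b-Ptgs2 and 23.8% of A1-like Mki67 cells, and 8.4% or less of each other state. The part of dissociation genes and doublets in the state levels was not tested.

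Csf1r was highest in D/E-like cells, at 2552 CPM (1958 to 3209), and the next state, interferon-like cells, had 1466 CPM (1241 to 1606), with no overlap between the mice. The lowest Csf1r levels, 995 CPM in haemoglobin cells and 994 CPM in A1-like Ube2c cells, overlapped. Csf1 had another order: it was highest in Il12b-Ptgs2 cells, at 421 CPM (298 to 502), where each mouse was above its own Itgax cells though the ranges overlapped (281 CPM, 205 to 330), and lowest in A1-like Ube2c cells, at 53.1 CPM (44.7 to 65.0). Il12b-Ptgs2 cells, 14.2 to 24.3% of the microglia, carried 34.9 to 51.7% of all microglial Csf1 UMIs. These cells were deeper, with a median of 10657 to 13650 UMIs against 6245 to 7113 over all microglia. Their share of UMIs of all genes was therefore also above their share of cells.

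Among the GM-CSF receptor chains, Csf2ra varied least, from 173 CPM in haemoglobin cells to 249 CPM in Itgax cells. Csf2rb ranged from 20.9 CPM in A1-like Ube2c cells to 90.9 CPM in Il12b-Ptgs2 cells, where its range over mice (81.4 to 95.9) overlapped with that of interferon-like cells (63.8 to 107). Csf2rb2 was at 21.3 CPM in D/E-like cells and 20.4 CPM in interferon-like cells, which overlapped, and at 7.75 CPM in A1-like Ube2c cells. Csf2rb and Csf2rb2 share 14.6% and 15.1% of the 60-base runs of their transcripts but none in the last 500 bases, the end that a 3′ library reads; reads from the shared stretches could not be told apart.

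Csf3r was highest in D/E-like cells, at 179 CPM (160.1 to 195), above Itgax cells (144 CPM, 134 to 152) without overlap. A larger share of the UMIs of Il7r than of any other member lay in D/E-like cells. Its level there was 59.7 CPM (54.6 to 65.3), against 6.69 CPM (1.55 to 12.5) in interferon-like cells and 1.62 to 3.69 CPM in the other 5 states. D/E-like cells, 12.8 to 20.4% of the microglia, carried 54.9 to 64.4% of all microglial Il7r UMIs, and 1.34 to 17.5% of those of the other 7 members. These cells were shallow, with a median of 2940 to 3756 UMIs, so their share of UMIs of all genes was below their share of cells. The partner of Il7r, Il2rg, had its highest level in interferon-like cells (33.4 CPM, 22.1 to 40.4) and its lowest in D/E-like cells (8.91 CPM, 7.01 to 12.2). Both overlapped with their neighbours in the order.

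**Figure D2:**
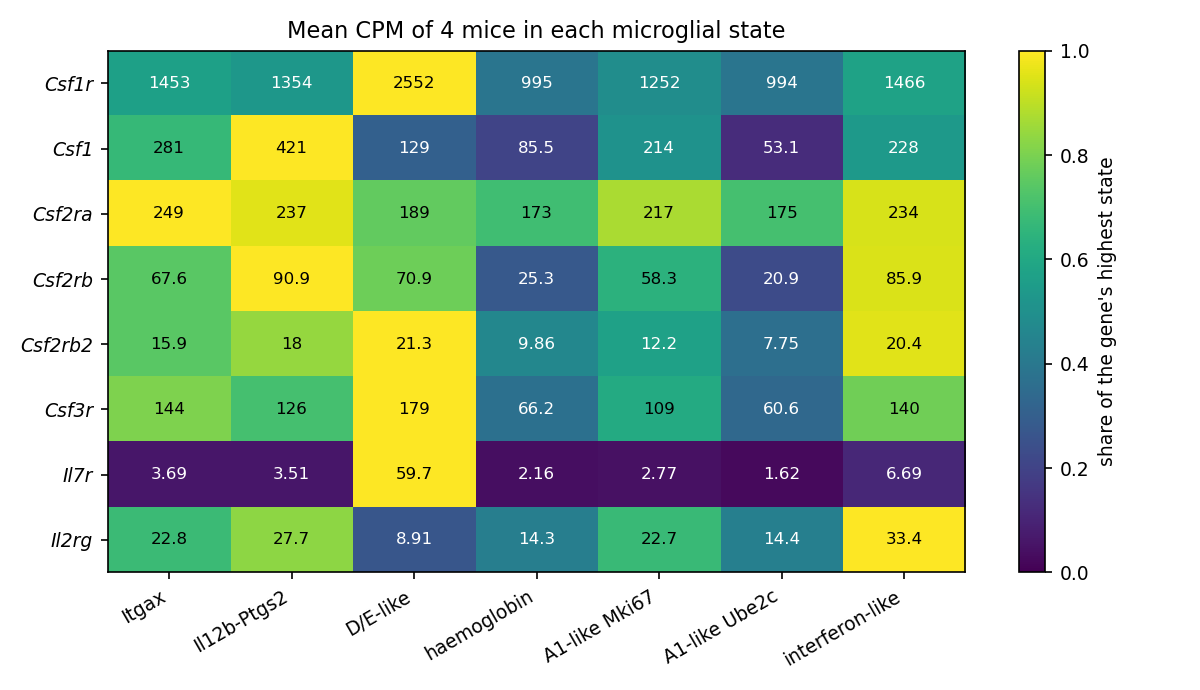
Level of each member (rows) in the 7 microglial states (columns), drawn as a grid in which the printed value is the mean CPM of 4 mice and the colour is that mean as a share of the gene's highest state. Il7r, Csf1r, Csf3r and Csf2rb2 are highest in D/E-like cells, Csf1 and Csf2rb in Il12b-Ptgs2 cells, and Il2rg is lowest in D/E-like cells.

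Depth differed between states, with a median of 2940 to 3756 UMIs per D/E-like cell and 10657 to 13650 per Il12b-Ptgs2 cell, so shares of cells were also taken after thinning each cell to 2000 UMIs. Of D/E-like cells 10.7 and 11.1% in PRMT1FL mice, against 12.2 and 12.6% in PRMT1Cx3cr1-KO mice, then had a UMI of Il7r (unthinned 14.8, 16.4, 20.7 and 21.4%), and of Il12b-Ptgs2 cells 0.297 to 1.03%. The thinning left out 156 to 505 D/E-like cells per mouse that were shallower. In astrocyte-like cells, which should lack Il7r, 0 of 208 cells had a UMI of it (104 and 82 cells from PRMT1FL mice, 12 and 10 from PRMT1Cx3cr1-KO mice). Pooled over mice, this allows a share of up to 1.44% (counting error only). The limit is wider for PRMT1Cx3cr1-KO mice alone. Thinned Il7r shares in Itgax, Il12b-Ptgs2, haemoglobin and both A1-like states were under 1.44%, and the part of background in them was not tested. Csf1r, by contrast, had a UMI in 10.6 to 35.0% of astrocyte-like cells unthinned, as background for shares of that size. T-cell genes were nearly absent beside Il7r: in the microglia with an Il7r UMI the 12 lymphocyte markers together had 4, 9, 11 and 7 UMIs per mouse, and Cd3e, Cd3d, Cd3g, Trac and Trbc2 had 0.

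In D/E-like cells Csf1 and Csf2ra were higher and Csf1r was lower in PRMT1Cx3cr1-KO mice than in PRMT1FL mice. Csf1 was at 85.2 and 85.6 CPM in PRMT1FL mice and at 182 and 164 CPM in PRMT1Cx3cr1-KO mice, from 386, 378, 1477 and 1755 UMIs. The groups did not overlap, and the log2 fold change was 1.09 (SE 0.10, adjusted p = 4.07e-06 from edgeR). The thinned share of D/E-like cells with a Csf1 UMI was 8.98 and 7.72% in PRMT1FL mice, against 18.2 and 15.8% in PRMT1Cx3cr1-KO mice (unthinned 12.6, 12.5, 23.3 and 23.5%).

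Csf2ra was at 143 and 155 CPM in the D/E-like cells of PRMT1FL mice and at 216 and 241 CPM in those of PRMT1Cx3cr1-KO mice (log2 fold change 0.69, SE 0.10, adjusted p = 0.0002 from edgeR), again without overlap. Its thinned share of cells was 23.1 and 25.3% against 33.7 and 35.8%. Csf1r was at 3209 and 2913 CPM against 2127 and 1958 CPM, a log2 fold change of -0.51 (SE 0.11, adjusted p = 0.0032 from edgeR). Nearly all D/E-like cells kept a Csf1r UMI after thinning, 99.7 and 99.5% against 94.9 and 94.7%.

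These calls stand against a background in which 27.1% of 11160 genes passed the same test in D/E-like cells, so 3 called members of 8 is near the share over all genes. The state differed widely between genotypes: Spp1 was at 118 and 107 CPM against 637 and 1032 CPM, and Apoe at 6540 and 6171 against 24373 and 29774 CPM. Siglech, a D marker of the study, was at 1238 and 1214 against 256 and 159 CPM. Tnfaip2, an E marker of the study, was at 42.6 and 37.8 against 653 and 565 CPM. P2ry12, also an E marker of the study, went the other way, at 1977 and 1997 against 1847 and 1723 CPM. The study reported a loss of cluster D and a gain of cluster E in PRMT1Cx3cr1-KO microglia. The D/E-like sums join cells with markers of both clusters, and the part of this mix in the member values was not tested. D/E-like cells made up 12.8 and 14.7% of the microglia in PRMT1FL mice, against 19.2 and 20.4% in PRMT1Cx3cr1-KO mice. The dissociation genes summed to 17984 and 14161 CPM against 17431 and 11972 CPM, which overlapped between genotypes, and their part in the member values was not tested.

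The other 5 members did not pass the test in D/E-like cells. Il7r was higher in both PRMT1Cx3cr1-KO mice, at 65.3 and 61.2 CPM against 57.8 and 54.6 CPM (log2 fold change 0.24, SE 0.10, adjusted p = 0.0932 from edgeR). Csf3r was lower in both, at 173 and 160.1 CPM against 188 and 195 CPM (-0.13, SE 0.09, adjusted p = 0.338). Csf2rb (66.6 to 80.8 CPM), Csf2rb2 (17.7 to 25.8 CPM) and Il2rg (7.01 to 12.2 CPM) overlapped between genotypes.

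**Figure D3:**
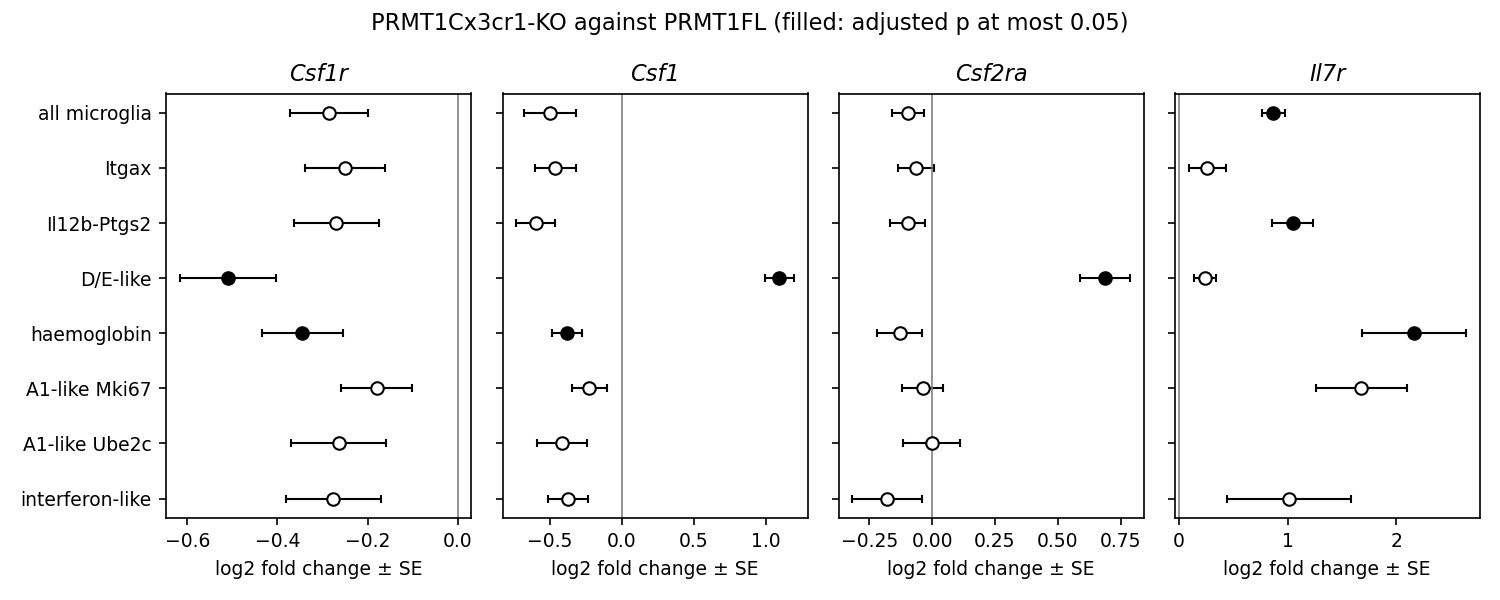
Log2 fold change (horizontal axes) of Csf1r, Csf1, Csf2ra and Il7r between PRMT1Cx3cr1-KO and PRMT1FL mice in all microglia and in 7 microglial states, from edgeR's quasi-likelihood test on sums per mouse. Points are estimates, filled where the adjusted p is at most 0.05, and bars the SE; Csf1 and Csf2ra lie above 0 in D/E-like cells, Csf1r lies below 0 in all 7 states, and Il7r was not tested in A1-like Ube2c cells.

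In the other states, the members that passed were Il7r, Csf1r and Csf1. In Il12b-Ptgs2 cells, where 1.04% of 12045 genes were called, Il7r rose from 2.05 and 2.34 CPM to 4.57 and 5.07 CPM (log2 fold change 1.05, SE 0.19, adjusted p = 0.0431 from edgeR). The thinned share of these cells with an Il7r UMI was under the limit of 1.44% from astrocyte-like cells. Csf1, highest in this state, was at 486 and 502 CPM against 397 and 298 CPM (-0.60, SE 0.13, adjusted p = 0.0725). The Il7r call was lost with the clustering resolution raised (0.41, adjusted p = 0.424), with another clustering seed (0.99, adjusted p = 0.0622) and without marked doublets (0.85, adjusted p = 0.138), all from edgeR, and under DESeq2 (1.05, adjusted p = 0.0911). Leaving out either PRMT1FL mouse ended the call as well in edgeR (0.93 and 1.15, adjusted p = 0.393 and 0.290), whereas DESeq2 called Csf1 here (-0.59, adjusted p = 0.0008).

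In haemoglobin cells 3.27% of 9846 genes were called, and Csf1r, Csf1 and Il7r were among them. Csf1r fell from 1091 and 1064 CPM to 916 and 908 CPM (-0.35, SE 0.09, adjusted p = 0.0317 from edgeR), and Csf1 from 86.5 and 100.5 CPM to 82.7 and 72.4 CPM (-0.38, SE 0.10, adjusted p = 0.0440 from edgeR). Il7r rose on few UMIs, 6 and 5 in PRMT1FL mice, against 12 and 40 in PRMT1Cx3cr1-KO mice, and with a log2 fold change of 2.16 (SE 0.48, adjusted p = 0.0096 from edgeR). Its thinned share of cells was here too under the limit of 1.44% from astrocyte-like cells. Without PRMT1Cx3cr1-KO mouse 2, which had most of these UMIs, the Il7r value was 1.48 (adjusted p = 0.452), and Csf1 (-0.24, adjusted p = 0.437) and Csf1r (-0.30, adjusted p = 0.0610) were not called either. No member was called without PRMT1FL mouse 2 by edgeR, where the adjusted p was 0.0654 for Il7r, 0.211 for Csf1r and 0.363 for Csf1. Leaving out PRMT1FL mouse 1 left the Csf1 call alone (-0.48). The 4 erythroid markers summed to 241 and 93.7 CPM over the microglia of PRMT1FL mice, against 0.0613 and 0.0215 CPM in PRMT1Cx3cr1-KO mice, and their part in these values was not tested. With the clustering resolution raised Csf1r and Csf1 were not called (adjusted p = 0.0506 and 0.101 from edgeR), and with another clustering seed Csf1 was not (adjusted p = 0.0619). Scaling by the trimmed mean of M-values moved log2 fold changes in this state by -0.10, more than in any other state tested.

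No member passed in Itgax cells (0.0238% of genes called), in A1-like Mki67 cells (0.515%), in A1-like Ube2c cells (0.81%, 7 of the 8 members tested) or in interferon-like cells (1.03%) by edgeR, and DESeq2 called none there. In each of these 4 states 2 members had an unadjusted p under 0.05. So had 1963 of 12606 genes in Itgax cells and 1207 of 11068 in A1-like Mki67 cells. In A1-like Ube2c cells they were 683 of 7657 genes and in interferon-like cells 718 of 8670. The direction of Csf1r was nonetheless the same: both PRMT1Cx3cr1-KO mice were below both PRMT1FL mice in all 7 states, with log2 fold changes from -0.18 in A1-like Mki67 cells to -0.51 in D/E-like cells. Il7r was above in 6 of 7 states. Outside D/E-like cells its thinned shares in these states were under the limit of 1.44% from astrocyte-like cells. Csf1 was below in 5 states and above in 1, D/E-like cells. In 7 states drawn from the same 4 mice these directions are not independent. The share of all genes with such an order of the mice is not given here, so these counts of states have no base rate beside them.

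Whether a genotype effect differed between D/E-like cells and all other microglia was tested as an interaction, in which 22.2% of 13577 genes were called. Csf1 differed by 1.65 on the log2 scale (SE 0.12, adjusted p = 5.13e-10 from edgeR) and Csf2ra by 0.82 (SE 0.09, adjusted p = 7.02e-07), both more positive in D/E-like cells. Csf2rb differed by 0.30 (SE 0.09, adjusted p = 0.0235) and Il7r by -0.46 (SE 0.16, adjusted p = 0.0355), while the Csf1r difference of -0.20 did not pass (SE 0.08, adjusted p = 0.0885). The Csf2rb and Il7r calls were lost under limma's voom with the mouse as a random block (adjusted p = 0.238 and 0.0852), and the Il7r value was -0.25 without PRMT1FL mouse 1 (adjusted p = 0.465) and -0.32 without PRMT1Cx3cr1-KO mouse 2 (adjusted p = 0.181). The Csf2rb call was also lost without PRMT1FL mouse 1 (0.26, adjusted p = 0.224), PRMT1FL mouse 2 (0.36, adjusted p = 0.0942) or PRMT1Cx3cr1-KO mouse 2 (0.24, adjusted p = 0.111), all from edgeR. Csf1r was called by edgeR without PRMT1Cx3cr1-KO mouse 2 (-0.24). In A1-like Mki67 cells Csf1 differed from the other microglia by 0.30 (SE 0.07, adjusted p = 0.0315 from edgeR, 1.32% of genes called). In the other 5 states edgeR called no member, limma's voom called none, and 5 of the member values had an unadjusted p under 0.05. The share of all genes at that unadjusted level is not given here. Without PRMT1Cx3cr1-KO mouse 1 edgeR called 3 members in Itgax cells (Csf1, Csf2rb and Il7r) and 1 in interferon-like cells (Csf1), and with no filter on low counts it called Il7r alone in Itgax cells. With all mice and the filter the interaction called 3.82% of genes (Itgax), 1.45% (Il12b-Ptgs2), 0.33% (haemoglobin), 0.852% (A1-like Ube2c) and 0.204% (interferon-like).

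D/E-like cells, divided again after their values were seen, gave 6 subgroups whose shares differed between genotypes. Subgroup 1, led by Hspa1b, Klf2 and Siglech, held 62.0 and 59.6% of the D/E-like cells of PRMT1FL mice but 10.9 and 4.20% of those of PRMT1Cx3cr1-KO mice. Subgroup 4 (Treml4, Fosb) held 0.214 and 0.439% against 25.0 and 28.7%, and subgroup 6 (Mmp12, Gpnmb, Spp1) 0.214 and 0.439% against 6.50 and 10.7%. Subgroups 2 (Gm20045, Snhg20), 3 (Tnfsf9, Dusp2, Cxcl2) and 5 (mitochondrial genes, median 796 UMIs) were present in all 4 mice.

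The member values differed between these subgroups. In PRMT1Cx3cr1-KO mice subgroup 6 had the highest Csf1, 417 and 453 CPM, and the lowest Csf1r, 785 and 897 CPM, beside 1832 to 3715 CPM of Csf1r in the other subgroups of these mice. Within a subgroup, the Csf1 difference was smaller than in D/E-like cells as a whole: its log2 fold change was 0.52 in subgroup 1 (adjusted p = 0.437), 0.57 in subgroup 2 (adjusted p = 0.192), 0.54 in subgroup 3 (adjusted p = 0.0446, where 8.61% of genes were called) and 0.73 in subgroup 5 (adjusted p = 0.684), each from edgeR. With the subgroup as a term, in a fit that takes several sums per mouse, it was 0.55 (adjusted p = 0.0046 from limma's voom, 18.1% of genes called). That fit took subgroups 1, 2, 3 and 5 only. Subgroups 4 and 6, with too few cells in PRMT1FL mice, were left out of it, so it does not cover all D/E-like cells. The part of the subgroup shares in the Csf1 difference was not tested. On the same term Csf2ra was at 0.45 (adjusted p = 0.0006), Il7r at 0.38 (adjusted p = 0.0214) and Csf1r at -0.32 (adjusted p = 0.0003), all from limma's voom.

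Csf2ra passed within subgroup 2 (0.56, adjusted p = 0.00997; 11.7% of genes called) and subgroup 3 (0.48, adjusted p = 0.0279), and Csf1r within subgroup 3 (-0.51, adjusted p = 0.0108), from edgeR. In subgroup 3 Csf1 was at 107 and 153 CPM in PRMT1FL mice and at 216 and 164 CPM in PRMT1Cx3cr1-KO mice, and Csf2ra at 152 CPM in both PRMT1FL mice and at 205 and 221 CPM in PRMT1Cx3cr1-KO mice. Subgroup 1, the main one of PRMT1FL mice, had 0.183% of genes called and no member among them; Csf1r there was at 3207 and 2870 CPM against 2691 and 2566 CPM (-0.21, adjusted p = 0.657 from edgeR).

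**Figure D4:**
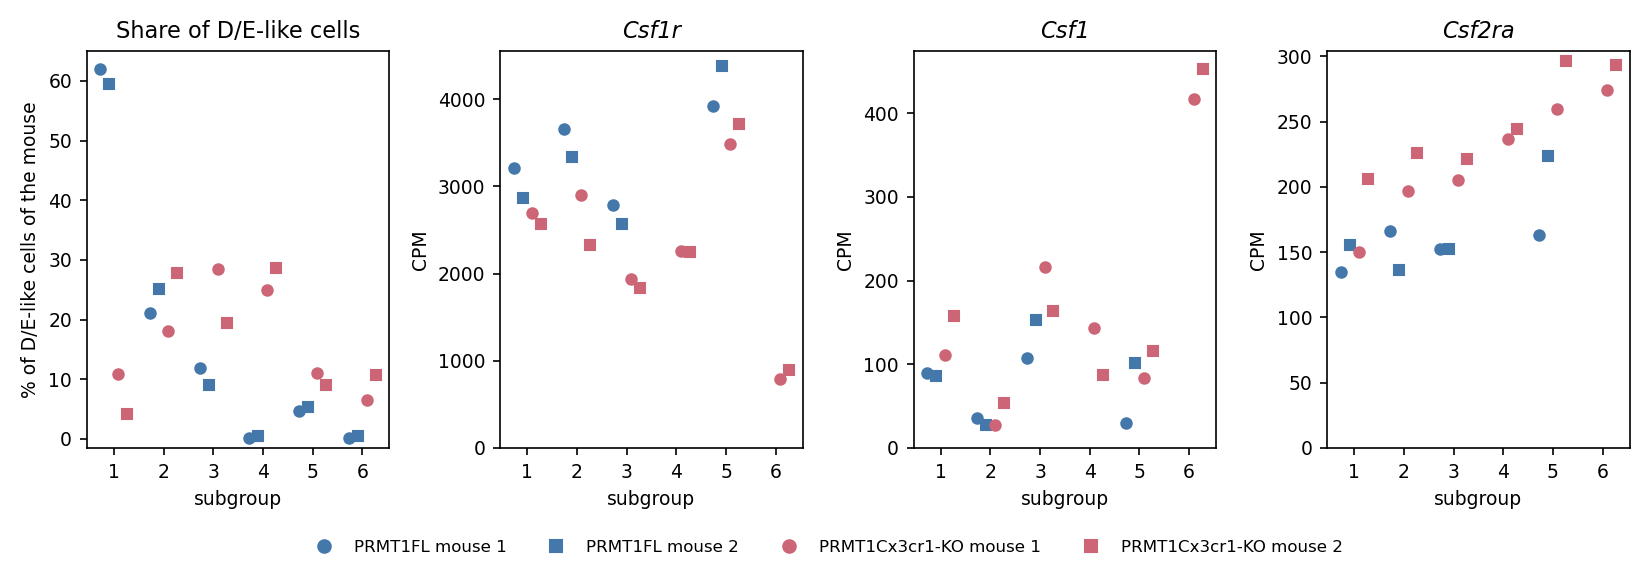
Share of D/E-like cells in each of 6 subgroups (left, % per mouse) and CPM of Csf1r, Csf1 and Csf2ra in them, 1 point per mouse. PRMT1FL levels are not drawn in subgroups 4 and 6, where these mice had 3 and 5 cells; subgroup 6 has the lowest Csf1r and the highest Csf1.

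Whether partner chains lay in the same cells was described in microglia thinned to 2000 UMIs, as the log2 ratio of the partner in cells that had a UMI of the first gene to cells that had none. Over all microglia the ratio of Csf2rb in cells with Csf2ra was 0.11, 0.19, 0.10 and 0.23 in the 4 mice, and that of Csf2rb2 0.18, 0.32, 0.16 and 0.35. Within states the sign of the Csf2rb ratio was mixed, as in Il12b-Ptgs2 cells (-0.09, 0.24, -0.31 and 0.00) and D/E-like cells (0.42, -0.63, 0.05 and 0.14). For Csf1r in cells with Csf1 the ratios were -0.16, -0.24, -0.12 and -0.10 over all microglia, between -0.14 and 0.09 in Itgax and Il12b-Ptgs2 cells, and within D/E-like cells -0.20 and -0.17 in PRMT1FL mice, against -0.56 and -0.71 in PRMT1Cx3cr1-KO mice. The D/E-like values mix the subgroups, of which subgroup 6, high in Csf1 and low in Csf1r, was larger in PRMT1Cx3cr1-KO mice. Its part in these ratios was not tested. For Csf1 in cells with Il7r the ratios over all microglia were -1.70, -1.55, -0.70 and -0.57, a value that mixes the D/E-like cells, rich in Il7r and low in Csf1, with the other states. They were -1.17, -1.75, -0.36 and -0.48 within D/E-like cells and -0.32, -0.52, 0.33 and 0.01 within Itgax cells. The D/E-like ratios rest on few Csf1 UMIs beside Il7r, 9 and 4 in PRMT1FL mice against 47 and 47 in PRMT1Cx3cr1-KO mice. Without thinning the D/E-like ratios were of mixed sign, at -1.11, 0.20, -0.44 and -0.29. Over all microglia without thinning they were -0.31, -0.14, -0.35 and -0.36. For Il7r and its partner Il2rg the thinned cells held only 2 to 8 UMIs of Il2rg per mouse beside Il7r, too few to describe. Cells of 1 mouse are not replicates, and these ratios carry no test.

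Of the other genes of these pathways, 34 were listed and 26 had enough UMIs for a test over all microglia. None was called by edgeR and 1 by DESeq2 (Irf8), and 8 were higher and 18 lower. An unadjusted p under 0.05 was found for 4 of them, beside 2735 of all 13874 genes tested. Of the ligands, Csf2 and Il3 had 0 UMIs in microglia, Csf3 and Il7 had 1 each and Il34 had 3, while Tslp, which binds Il7r with Crlf2, was at 0.466 to 0.782 CPM (log2 fold change -0.38, adjusted p = 0.471 from edgeR). Il15, a ligand of Il2rg-bearing receptors, was at 9.63 to 12.2 CPM (log2 fold change 0.17, adjusted p = 0.401 from edgeR). Il4ra, which joins Il2rg in the IL-4 receptor, was at 57.4 and 49.1 CPM against 68.3 and 69.0 CPM (0.29, adjusted p = 0.151), Il3ra, the alpha chain that uses Csf2rb and Csf2rb2, had a log2 fold change of -0.25 and Il21r of -0.17. Among kinases, adaptors and STATs, the values of largest size were those of Stat5b (-0.21), Tyk2 (-0.15) and Tyrobp (-0.14), and among feedback genes those of Socs1 (-0.12), Cish (-0.11) and Socs3 (0.08). Irf8, a factor of the microglial lineage, was at 607 and 562 CPM against 515 and 482 CPM (-0.30, adjusted p = 0.139), Cebpa had -0.25 and Cebpb 0.18.

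In D/E-like cells 5 of 25 listed genes tested were called higher and 2 lower, beside the 27.1% of all genes; they are named after their values were seen. The alpha chain Il3ra (log2 fold change 1.68), Il4ra (0.60), the TSLP receptor chain Crlf2 (0.88), the feedback gene Socs2 (2.14) and Cebpb (0.50) rose, and Tslp (-1.89) and Il21r (-0.73) fell, all at an adjusted p of 0.0168 or less from edgeR. In the other 6 states edgeR called no listed gene, and DESeq2 called 1, Irf8 in Il12b-Ptgs2 cells (-0.36, adjusted p = 0.0077). Of the edgeR values 22 had an unadjusted p under 0.05. Of all genes, 718 of 8670 in interferon-like cells (the lowest share) and 1917 of 12045 in Il12b-Ptgs2 cells (the highest) did.

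The genes whose level was most like that of a member over the 28 sums of 4 mice and 7 states, among 10726 genes, were Entpd1, Tmem173 and Calhm2 for Csf1r (Pearson r of log2 levels 0.97, 0.97 and 0.96) and Nfil3, Colgalt1 and Xylt1 for Csf1 (0.95, 0.94 and 0.93). Csf2ra was most like Rai14, Myo5a and Nceh1 (0.92, 0.91 and 0.91), Csf2rb most like Ccrl2, Tiparp and Ccl4 (each 0.97), and Il7r most like Tpst2, Bank1 and Gimap6 (0.96, 0.95 and 0.95). The sums share mice and states, so these are descriptions over points that are not independent.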

How the data were processed

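Raw UMI counts per gene and barcode were deposited by the authors for 4 libraries, not normalized. The submitters' processing notes name Cell Ranger 3.1.0, Seurat 3.2.0, Scanpy 1.5.2 and mm10; the annotation release is not given in the sources used here. Cells were kept at 200 to 6000 genes and a mitochondrial share of up to 10%, as in the study's methods. Leiden clustering (scanpy 1.11.5, leidenalg 0.10.2, Python 3.11.15; 2000 variable genes, 20 components, resolution 0.3) was followed by sums per mouse, because the mouse is the replicate. Marked doublets (6.54 to 9.15% of cells per mouse) were kept. Genotypes were compared with edgeR 4.0.16 in R 4.3.3 (quasi-likelihood test, TMM, Benjamini-Hochberg over all genes tested, called at 0.05); alternatives used limma 3.58.1 and DESeq2 1.42.0. With all 4 mice, p-values of edgeR and DESeq2 measure the spread between 2 mice per genotype. Where 1 mouse was left out, 1 genotype kept 1 mouse, and the p-value rests on the spread of the other genotype alone. Where limma's voom was used, it took several sums per mouse with 1 correlation for all genes. Its p-values therefore also draw on the spread between sums of the same mouse, and they are not measures of the spread between mice alone. The edgeR tests were also run on simulated counts, drawn with the same dispersion for every gene and without dependence between sums of a mouse. These settings are simpler than the data, so that run does not vouch for the p-values given here. All 8 members are named; of the pathway list the genes called or the 3 of largest change per group with at least 100 UMIs, and the 3 genes most like a member. The members and lists were chosen with earlier results of these data known. Intervals and floors cover counting error only.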

Additional observations from a re-analysis of the deposited data

Results flagged for a closer look

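The genotype effect of 4 members in D/E-like cells differed from that in the other microglia by a test of the difference itself (edgeR's quasi-likelihood interaction, in which 22.2% of 13577 genes were called). On the log2 scale the differences were 1.65 for Csf1, 0.82 for Csf2ra, 0.30 for Csf2rb and -0.46 for Il7r. The Csf2rb and Il7r calls were lost under limma's voom (adjusted p = 0.238 and 0.0852). For Csf1 in A1-like Mki67 cells the difference was 0.30. The Csf1 and Csf2ra calls of the interaction in D/E-like cells were kept under every alternative run for the interaction. The A1-like Mki67 call was lost under limma's voom (0.29, adjusted p = 0.866), by leaving out PRMT1FL mouse 2 (0.26, adjusted p = 0.279) and by leaving out PRMT1Cx3cr1-KO mouse 2 (0.20, adjusted p = 0.265), both in edgeR.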

How the results depend on the processing

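With 2 mice per genotype, single mice and settings moved most counts of calls. Over all microglia 1 member was called; DESeq2 gave 2, no filter on low counts 3 and the state as a term 3, and leaving out 1 mouse gave 0 to 6. Of all genes 64 were called; DESeq2 gave 687, no filter 1737, the replicate block 261, all cells 749 and the state as a term 2315, and leaving out 1 mouse gave 4 (without PRMT1FL mouse 1) to 2592 (without PRMT1Cx3cr1-KO mouse 1). Csf2ra turned to 0.033 with the state as a term (adjusted p = 0.821 from limma's voom), Csf2rb to 0.086 without PRMT1Cx3cr1-KO mouse 2 (range without 1 mouse -0.27 to 0.086) and Csf2rb2 to -0.15 without PRMT1Cx3cr1-KO mouse 1 (range -0.15 to 0.33); the cause was not tested. In Itgax cells 0 members were called, 1 with no filter and 1 with the replicate block, and 0 to 3 without 1 mouse. In Il12b-Ptgs2 cells the count was 1; it was 2 with no filter and with the replicate block, 0 with the resolution raised, another seed or no marked doublets, and 0 to 5 without 1 mouse. In haemoglobin cells it was 3, and 1 with DESeq2 (which gave no adjusted p for Il7r) or the resolution raised, 2 with another seed, and 0 to 3 without 1 mouse. In A1-like Mki67 cells it was 0, 1 with no filter or the replicate block, and 0 to 2 without 1 mouse. In interferon-like cells it was 0, and 0 to 1 without 1 mouse. The D/E-like count was 3 under every alternative that kept all mice, apart from the subgroup fits. The D/E-like interaction called 4 members, 2 under limma's voom and 2 to 4 without 1 mouse; in A1-like Mki67 cells it called 1, 0 under voom and 0 to 2 without 1 mouse. The interaction in Itgax cells called 0, 1 with no filter and 0 to 3 without 1 mouse, and that in interferon-like cells 0, and 0 to 1 without 1 mouse. In D/E-like cells DESeq2 called 1417 genes of all tested. The sources do not say whether mice of the same number were handled together. With 2 pairs, the deviations of mouse 1 from mouse 2 correlated at r = 0.165 over 13874 genes, which cannot decide this. In both genotypes mouse 2 had the deeper microglia (median 7113 beside 6245 UMIs for PRMT1FL, 6960 beside 6291 for PRMT1Cx3cr1-KO). The block raised the count of genes called in Itgax cells from 3 to 463 and in A1-like Ube2c cells from 62 to 78. Whether the mice were paired was not tested, and the replicate block is given as an alternative to the main design. Of 127 member fold changes under alternatives that keep all mice, 126 had the same direction and 105 also the same call. The subgroups of D/E-like cells were an alternative chosen after seeing the data.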

Other observations

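Outside microglia, Csf3r was at 584 and 447 CPM in the neutrophil-like cells of the PRMT1FL mice (27 and 47 cells), and the PRMT1Cx3cr1-KO mice had no cell of this cluster. Csf1r was at 1526 to 2065 CPM in border macrophage-like cells (35 to 67 cells per mouse) and at 1002 to 1107 CPM in monocyte-like cells (42 to 79 cells), and Csf1 was at 6.53 to 17.5 CPM in the border macrophage-like cells, from 1 to 3 UMIs per mouse. The B1-like microglia (Ms4a7, Clec12a and Cd38), with 26 and 7 cells in PRMT1FL mice, against 65 and 380 in PRMT1Cx3cr1-KO mice, were too few for a test; in the PRMT1Cx3cr1-KO mice Csf1 was at 45.8 and 25.3 CPM there and Csf1r at 1237 and 1162 CPM.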
